A study of Mus musculus with 4 samples.

Results

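Peroxiredoxins, thioredoxin, thioredoxin reductase and sulfiredoxin were examined in cultured mouse dorsal root ganglia after electrical stimulation. The genes were the 9 rows of the count tables with the symbols Prdx1 to Prdx6, Txn1, Txnrd1 and Srxn1, out of 23282 gene rows in all. RNA was counted in 4 libraries of explanted ganglia, the clusters of sensory neurons and glia beside the spinal cord, taken from C57BL/6 embryos at embryonic day 13 and seeded on Matrigel-coated coverslips. The ES library at 11 days in vitro (DIV) came from ganglia stimulated electrically for 1 h at 10 DIV (a field of 50 mV/mm at 20 Hz) and harvested at 11 DIV, and the control library at 11 DIV from ganglia with no stimulation. The ES library at 19 DIV came from ganglia stimulated in the same way at 10 DIV and harvested at 19 DIV, and the control library at 19 DIV from unstimulated ganglia of that age. All ganglia had been in growth medium until 8 DIV and in myelination medium after that. Each library was made from the pooled RNA of 3 explants, so there was 1 library per group and no replicates, and every ratio of 2 libraries below compares those libraries.

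Peroxiredoxins are enzymes that reduce hydrogen peroxide and organic peroxides with a reactive cysteine. Most of them are then returned to the reduced state by thioredoxin, which is itself reduced by thioredoxin reductase at the cost of NADPH, while sulfiredoxin rescues peroxiredoxins whose cysteine has been overoxidised. Neurons and glia both use this system, and several of its genes are known targets of NRF2, a transcription factor that binds antioxidant response elements together with small MAF proteins.

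In GENCODE M21 (GRCm38) all 9 are protein-coding genes, on chromosomes 4 (Prdx1 at chr4:116685544-116700822, plus strand, and Txn1), 1 (Prdx6 at chr1:161240112-161251219, minus strand), 2 (Srxn1), 8 (Prdx2), 10 (Txnrd1), 19 (Prdx3 and Prdx5) and X (Prdx4). The DNA at some of their start sites is shown first, since the antioxidant response element is where NRF2 binds. Promoter windows of 300 bases (250 before and 50 after the RefSeq start, GRCm38.p6) were found for 8 of the 9 genes, in 10 windows. Shown are Prdx1, Txnrd1 and Srxn1, whose windows hold the core of the element (TGACNNNGC on either strand). Prdx2 is shown as a gene whose window holds no match, with an ES to control ratio of 3.16 (0.674 to 24.4) at 11 DIV. The other genes whose window holds no match stood at 0.248 (Prdx4), 0.532 (Prdx3), 1.03 (Txn1) and 1.05 (Prdx5). Each of these ratios, like that of Prdx2, had an interval that included equality. The gene with no window was Prdx6. Whether the element bears on any of these ratios was not tested. Each window shown is printed 5′ to 3′ on the gene's strand, with the core in capitals.
Prdx1, chr4:116685349-116685648, plus strand: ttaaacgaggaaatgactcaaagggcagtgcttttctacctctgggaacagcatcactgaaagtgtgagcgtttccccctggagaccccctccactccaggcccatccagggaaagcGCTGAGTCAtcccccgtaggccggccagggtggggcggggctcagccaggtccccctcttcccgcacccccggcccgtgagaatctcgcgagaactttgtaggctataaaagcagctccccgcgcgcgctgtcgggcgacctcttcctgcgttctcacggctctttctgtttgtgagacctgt
Txnrd1, chr10:82858956-82859255, plus strand: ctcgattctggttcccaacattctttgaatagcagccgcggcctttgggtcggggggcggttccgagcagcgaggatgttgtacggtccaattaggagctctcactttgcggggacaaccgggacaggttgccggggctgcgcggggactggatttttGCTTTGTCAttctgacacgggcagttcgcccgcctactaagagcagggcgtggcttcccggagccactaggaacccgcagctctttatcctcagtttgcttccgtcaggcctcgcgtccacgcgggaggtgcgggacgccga
Srxn1, chr2:152105274-152105573, plus strand: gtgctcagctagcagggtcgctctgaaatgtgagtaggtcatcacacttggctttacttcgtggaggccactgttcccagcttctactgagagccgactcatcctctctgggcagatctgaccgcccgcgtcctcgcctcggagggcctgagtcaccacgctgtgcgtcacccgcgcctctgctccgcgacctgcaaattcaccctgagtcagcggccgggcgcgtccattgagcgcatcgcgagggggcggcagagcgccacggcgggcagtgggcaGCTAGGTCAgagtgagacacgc
Prdx2, chr8:84969372-84969671, plus strand: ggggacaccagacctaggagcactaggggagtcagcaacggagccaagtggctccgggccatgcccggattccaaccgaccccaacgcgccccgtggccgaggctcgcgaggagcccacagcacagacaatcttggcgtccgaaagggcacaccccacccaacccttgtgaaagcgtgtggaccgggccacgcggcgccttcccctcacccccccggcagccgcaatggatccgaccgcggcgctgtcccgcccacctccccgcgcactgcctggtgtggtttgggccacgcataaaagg

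The core lay on the strand opposite to the gene in all 3 windows that held it. Counting from 0 at the annotated start, it spanned positions -133 to -125 in Prdx1, where the opposite strand reads TGACTCAGC, positions -92 to -84 in Txnrd1, where it reads TGACAAAGC, and positions 28 to 36 in Srxn1, where it reads TGACCTAGC. The letters TGANTCA, the site of AP-1 factors such as FOS and JUN, occurred at 2 places in the Prdx1 window and 2 in the Srxn1 window. One of the Prdx1 places, -131 to -125, overlaps the core printed in capitals. The Srxn1 places, -102 to -96 and -45 to -39, lie apart from its core in capitals. Which stretch of a window NRF2 binds was not tested. Over all 32851 mouse windows of this length, 12.4% held TGACNNNGC and 7.81% held TGANTCA, both strands searched, so 3 windows among 10 is a description and not a test. The other Txnrd1 windows and those of Prdx3, Prdx4, Prdx5 and Txn1 held neither set of letters, which says only that these letters are not in those windows.

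Total counts ran from 5782834 to 7830950 reads per library, and 9632 to 9996 gene rows had a read. Counts were divided by TMM effective library sizes and are given as CPM. Reads were clumped, with 0 reads in one library and more than 200 in another for 2602 rows, so counting error understates the spread between libraries. Intervals below are therefore 95% intervals on counts divided by a spread factor (208 to 258), the factor by which squared differences of that pair of libraries exceeded counting error among genes of 500 to 3000 mean reads. Prdx1 had more reads than these genes and Prdx3 and Prdx4 fewer, so for them the factor was carried beyond its range. Their intervals may then be too narrow or too wide. A gene was called higher or lower when the ratio was at least 2-fold, the higher library had at least 50 reads and the 99% spread-adjusted interval excluded equality. A counting rule, with a 95% interval on the reads as deposited, is given beside it. The 3' tags cover transcript ends only, and the sources used here do not say whether strand was used in counting. In RNA from a whole explant, fewer cells of a type and less RNA per cell cannot be told apart.

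Electrical stimulation was set against no stimulation at 11 DIV, 1 day after the stimulus. The ES library held less Prdx1, and by smaller, less certain amounts less Prdx6 and Srxn1. Txnrd1 (0.420), Prdx4 (0.248) and Prdx3 (0.532) were also lower and Prdx2 (3.16) was higher, each with a 95% interval that included equality. Thioredoxin itself and Prdx5 stood at nearly the same level in both libraries. By the spread-adjusted rule 1 of the 9 genes, Prdx1, was lower and 0 were higher, against 0.214% of 9834 tested genes called lower and 0.102% called higher. By the counting rule 5 were lower (Prdx1, Prdx4, Prdx6, Txnrd1 and Srxn1), 1 was higher (Prdx2) and 3 were neither. That rule called 29.6% of all tested genes lower and 28.9% higher. With a 95% in place of the 99% spread-adjusted interval 3 genes were lower (Prdx1, Prdx6 and Srxn1) and 0 higher, where 0.508% of tested genes were lower and 0.315% higher. The median log2 difference of the 9 genes was -1.22, beside 0.00 over all genes that averaged 10 reads or more.

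Prdx1, a cytosolic peroxiredoxin that also acts as a chaperone, had 12609 reads (2128 CPM) in the ES library at 11 DIV, against 37082 reads (6401 CPM) in the control library at 11 DIV. At 19 DIV it had 5322 reads (666 CPM) in the ES library and 3799 reads (551 CPM) in the control library. The control library at 11 DIV was thus the highest and the 19 DIV libraries were the lowest. The ES library at 11 DIV stood at 0.333 times the control library (0.244 to 0.447). Both libraries held more Prdx1 reads than the genes the spread factor was fitted on, so this interval may be too narrow. A factor from genes of 1000 to 10000 mean reads, a range that Prdx1 also exceeds here, gave the same call. Exact Poisson intervals, which cover counting error only, spanned 12390 to 12831 reads in ES against 36706 to 37461 in control.

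Prdx6, which reduces peroxides with a single catalytic cysteine, uses glutathione in place of thioredoxin, and also cleaves phospholipids, had 2631 reads (444 CPM) in the ES library and 6012 reads (1038 CPM) in the control library at 11 DIV. At 19 DIV there were 1193 reads (149 CPM) in ES and 854 reads (124 CPM) in control. The order of the 4 libraries was the same as for Prdx1. The ratio at 11 DIV was 0.428 (0.202 to 0.855), so the 95% interval excluded equality and the 99% interval of the rule did not. Its near copy Prdx6b had at most 5 reads in any library, and reads that fit both copies cannot be told apart.

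Prdx2, the other cytosolic thioredoxin-dependent peroxiredoxin and the abundant one of red cells, had 1591 reads (269 CPM) in the ES library and 492 reads (84.9 CPM) in the control library at 11 DIV. At 19 DIV it had 611 reads (76.5 CPM) in ES and 796 reads (115 CPM) in control. The ES library at 11 DIV was the highest of the 4, at 3.16 times its control (0.674 to 24.4), an interval that includes equality. The annotation places Junb and Rnaseh2a over Prdx2 on the opposite strand. Junb had 683 reads in ES against 868 in control at 11 DIV, and 2178 in ES against 1042 in control at 19 DIV. Rnaseh2a had 29 reads in ES against 288 in control at 11 DIV, and 48 in ES against 242 in control at 19 DIV. Their part in the Prdx2 counts was not tested. Red cell markers summed to 6 reads in ES against 293 in control at 11 DIV, and to 0 in both libraries at 19 DIV, with Alas2 and Slc4a1 among those at 0 in all 4. Of the 293 reads, 272 were Hba-a1, and 3 of the 10 markers had a read in that library, so the sum rests almost on 1 gene.

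Prdx5, found in mitochondria, peroxisomes and cytosol, had 1124 reads (190 CPM) in the ES library and 1049 reads (181 CPM) in the control library at 11 DIV. At 19 DIV it had 1304 reads (163 CPM) in ES and 461 reads (66.9 CPM) in control. The control library at 19 DIV was the low one, and the other three lay close together. The ratio at 11 DIV was 1.05 (0.253 to 4.43), an interval that spans several-fold differences in either direction. Trmt112, which overlaps Prdx5 on the opposite strand, had 829 reads in ES against 873 in control at 11 DIV, and 885 in ES against 161 in control at 19 DIV, with its low value in the same library as Prdx5. Its part in the Prdx5 counts was not tested.

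Prdx3, the mitochondrial peroxiredoxin, and Prdx4, that of the endoplasmic reticulum, had few reads. Prdx3 had 31 reads in ES against 57 in control at 11 DIV, and 96 in ES against 299 in control at 19 DIV. Prdx4 had 156 reads (26.3 CPM) in ES and 615 (106 CPM) in control at 11 DIV, and 11 in ES and 0 in control at 19 DIV, where the limit of 3 reads set for a count of 0 is 0.435 CPM and the 2-sided Poisson interval reaches 0.535 CPM. For Prdx4 the 11 DIV libraries were the high ones and for Prdx3 the 19 DIV libraries were. The ES to control ratio of Prdx4 at 11 DIV was 0.248 (0.00167 to 3.74), and that of Prdx3 was 0.532 with an interval too wide to bound it.

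Txn1, the cytosolic thioredoxin that reduces peroxiredoxins, had 3642 reads (615 CPM) in the ES library and 3456 reads (597 CPM) in the control library at 11 DIV. At 19 DIV it had 3425 reads (429 CPM) in ES and 2765 reads (401 CPM) in control. It had the narrowest range of the 9 genes, 1.53-fold between its highest and lowest library. The ES to control ratio was 1.03 (0.496 to 2.15) at 11 DIV.

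Txnrd1, the selenoenzyme that reduces thioredoxin, had 902 reads (152 CPM) in the ES library and 2101 reads (363 CPM) in the control library at 11 DIV. At 19 DIV it had 830 reads (104 CPM) in ES and 668 reads (96.9 CPM) in control. One library, the control at 11 DIV, stood above the other three. Its ratio at 11 DIV was 0.420 (0.102 to 1.41), an interval that includes equality. Eid3 overlaps Txnrd1 on the same strand and had 133 reads in the control library at 11 DIV and 0 in the other three, and reads of the overlap cannot be told apart.

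Srxn1, sulfiredoxin, had 2558 reads (432 CPM) in the ES library and 6025 reads (1040 CPM) in the control library at 11 DIV. At 19 DIV it had 1785 reads (224 CPM) in ES and 1611 reads (234 CPM) in control. As for Prdx1, Prdx6 and Txnrd1, the control library at 11 DIV was the highest and the 11 DIV ES library came next. The ES to control ratio at 11 DIV was 0.415 (0.195 to 0.834), with the 95% interval below equality and the 99% interval across it.

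**Figure D1:**
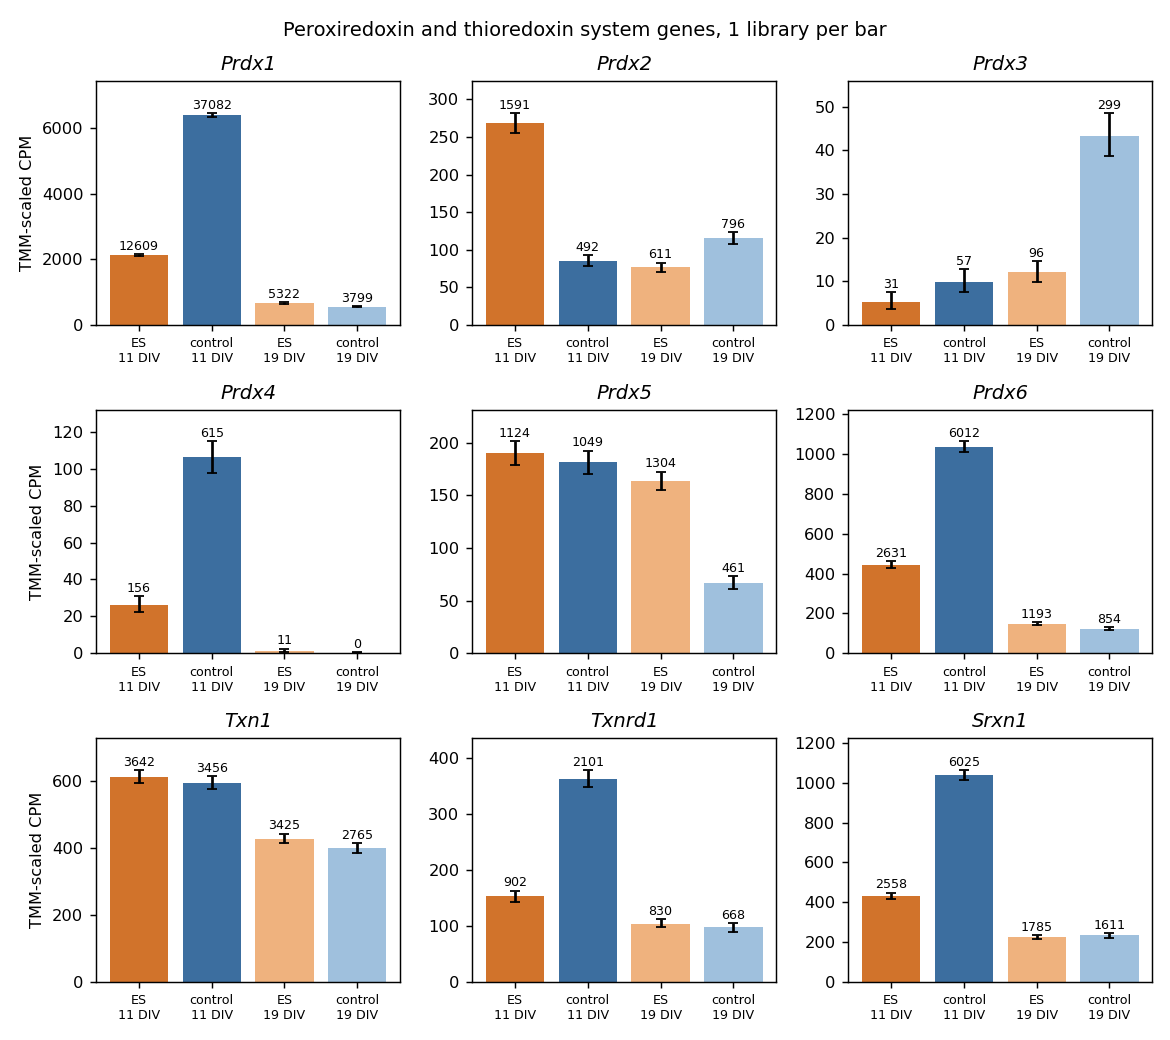
TMM-scaled CPM of each of the 9 genes (y axis, starting at 0) in the 4 libraries, 1 bar per library, with the reads above each bar and 95% Poisson intervals as error bars, which cover counting error only. Prdx1, Prdx4, Prdx6, Txnrd1 and Srxn1 are highest in the control library at 11 DIV, Prdx2 in the ES library at 11 DIV, Prdx3 in the control library at 19 DIV, and Txn1 varies least (1.53-fold).

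Together the 9 genes took 0.437% of all reads in the ES library (exact binomial 95% interval 0.431% to 0.442%) and 0.918% in the control library (0.910% to 0.925%) at 11 DIV. At 19 DIV they took 0.186% in ES and 0.167% in control. Most of the difference at 11 DIV lay in Prdx1, which alone was 0.218% of reads in ES and 0.598% in control. Reads of Rn45s, the ribosomal RNA precursor, were also highest in the control library at 11 DIV, with 3.08% in ES and 5.18% in control, against 2.65% in ES and 2.82% in control at 19 DIV. The part of that in these ratios was not tested.

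**Figure D2:**
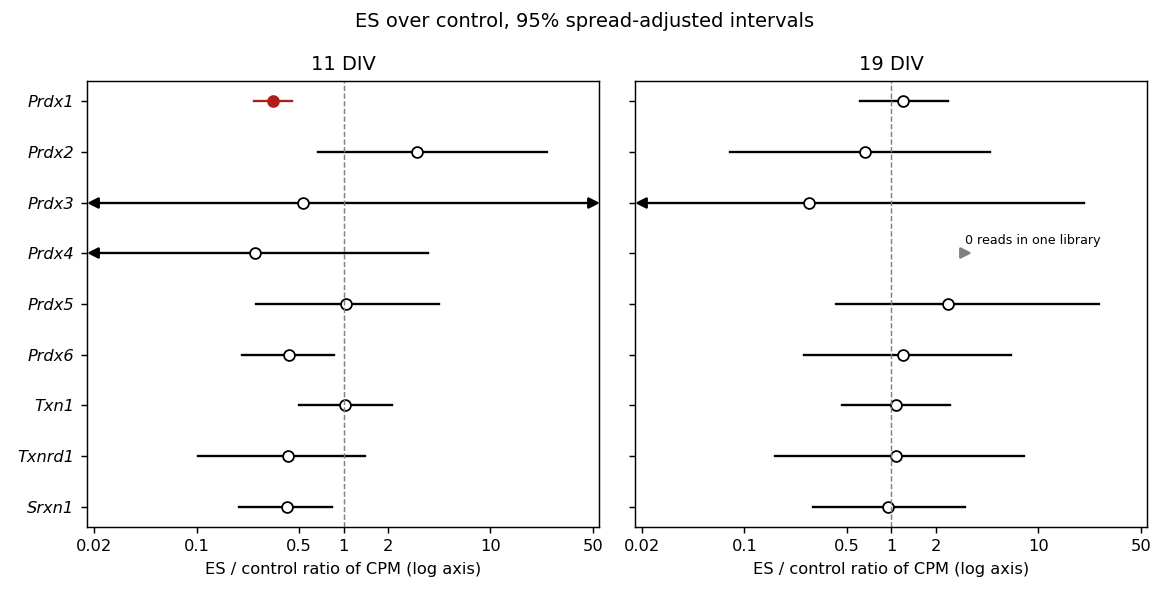
Ratio of ES to control CPM for each gene (x axis, log scale) at 11 DIV and at 19 DIV, with 95% spread-adjusted intervals. Filled red points passed the spread-adjusted rule, arrowheads mark intervals that leave the axis, and the grey arrowhead marks Prdx4 at 19 DIV, with 11 reads in ES against 0 in control. Prdx1 at 11 DIV (0.333) is the only gene past the rule.

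At 19 DIV, 9 days after the stimulus, Prdx1, Prdx6, Txnrd1 and Srxn1 each differed by less than 1.5-fold between the ES and control libraries. The ES to control ratio was 1.21 for Prdx1 (0.611 to 2.45), 1.21 for Prdx6 (0.254 to 6.52), 1.07 for Txnrd1 (0.162 to 8.00) and 0.956 for Srxn1 (0.295 to 3.16). Txn1 was at 1.07 (0.462 to 2.53). By the spread-adjusted rule 0 of the 8 genes with 50 reads were called in either direction, where 0.13% of 10027 tested genes were called higher and 0.13% lower. The counting rule called Prdx5 higher (2.44, 0.417 to 25.8 when adjusted for spread) and Prdx3 lower (0.277), with a background of 29.4% higher and 31.3% lower. The median log2 difference of the 9 genes was 0.10, beside 0.00 over all genes.

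The ES effect on Prdx1 at 19 DIV minus that at 11 DIV was 1.86 on the log2 scale (approximate interval 0.85 to 2.87). This interval lay above 0, with the spread factors carried beyond the reads they were fitted on. For every other gene with a value the interval crossed 0, as for Prdx6 at 1.49 (-0.67 to 3.66), Srxn1 at 1.20 (-0.57 to 2.98) and Prdx2 at -2.25 (-5.39 to 0.89). With 1 library per group this difference could not be tested, and an interval that crosses 0 does not show that the effects were alike.

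**Figure D3:**
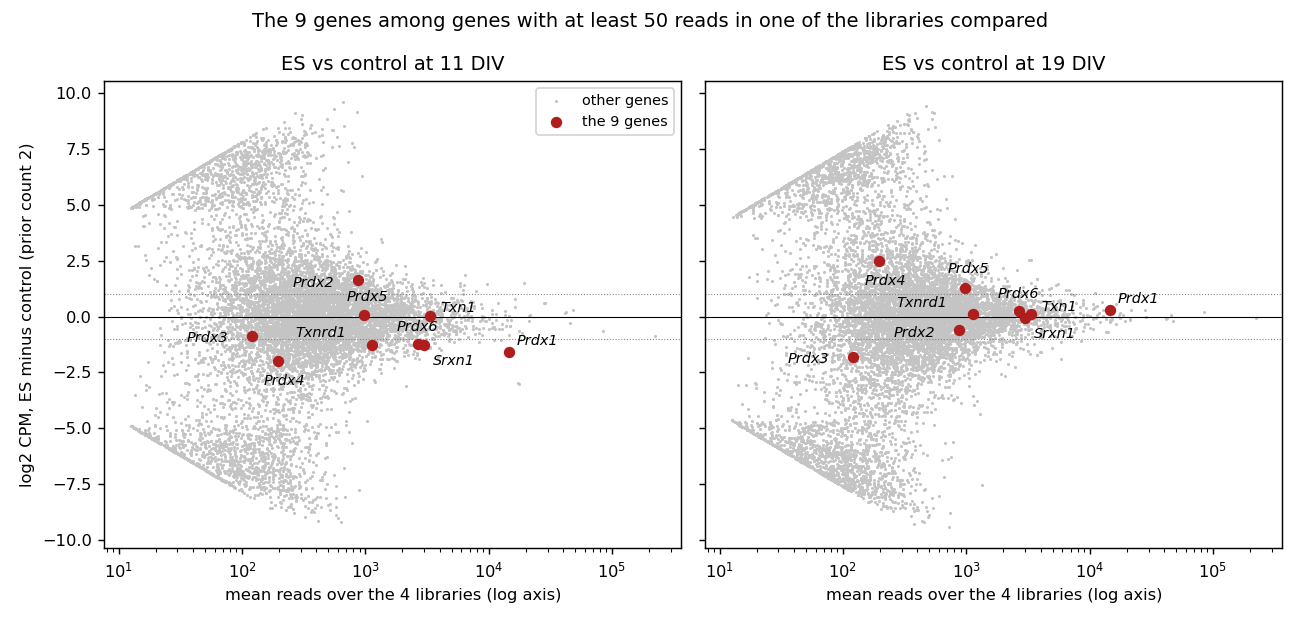
Log2 difference in CPM, ES minus control (y axis, prior count 2), against mean reads over the 4 libraries (x axis, log scale) for genes with at least 50 reads in one of the libraries compared (grey) and for the 9 genes (red), at 11 DIV and 19 DIV. Dotted lines mark 2-fold. Prdx1 at 11 DIV lies at -1.59, below the 2-fold line, and at 19 DIV at 0.27, while Prdx3 and Prdx4, with fewer reads, lie within a broad cloud.

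Harvest day was compared within each treatment, 19 DIV against 11 DIV. These comparisons use the same 4 libraries as those of stimulation, and each spread-adjusted call between days except that of Prdx1 in ES cultures rests, like that of Prdx1 at 11 DIV above, on the single control library at 11 DIV. In control cultures the 19 DIV library had less Prdx1, Prdx6 and Srxn1 than the 11 DIV library. Prdx1 stood at 0.0861 times its 11 DIV level (0.0485 to 0.143), which is 11.6-fold lower. Prdx6 stood at 0.119 times (0.0285 to 0.354) and Srxn1 at 0.225 times (0.0825 to 0.531). These 3 genes passed the spread-adjusted rule as lower, where 0.459% of 10025 tested genes did, and 0 passed it as higher, where 0.16% did. By the counting rule 6 were lower and 1, Prdx3, was higher, with a background of 29.8% lower and 30.9% higher. Prdx4, with 0 reads at 19 DIV against 615 at 11 DIV, was 244-fold lower when 0 is set to 3 reads in that library, but the 95% counting interval of the ratio reached 0.00506 times and the spread-adjusted one 2.49 times.

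In ES cultures the day difference of Prdx1 was smaller, with the 19 DIV library at 0.313 times the 11 DIV library (0.177 to 0.534). Prdx1 was the 1 gene past the spread-adjusted rule, with a background of 0.263% of 9884 genes lower and 0.162% higher. Prdx6 stood at 0.336 times (0.0858 to 1.10), Srxn1 at 0.518 times (0.166 to 1.52) and Txnrd1 at 0.683 times (0.102 to 4.37), and none of these intervals excluded equality. By the counting rule 4 genes were lower (Prdx1, Prdx2, Prdx4 and Prdx6) and 1, Prdx3, was higher, with a background of 30.5% lower and 30.9% higher. Txn1 stood at 0.698 times in ES (0.304 to 1.59) and at 0.672 times in control (0.288 to 1.54), with equality inside both intervals. The median log2 day difference of the 9 genes was -0.95 in ES cultures and -1.90 in control cultures, beside 0.00 over all genes in each.

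**Figure D4:**
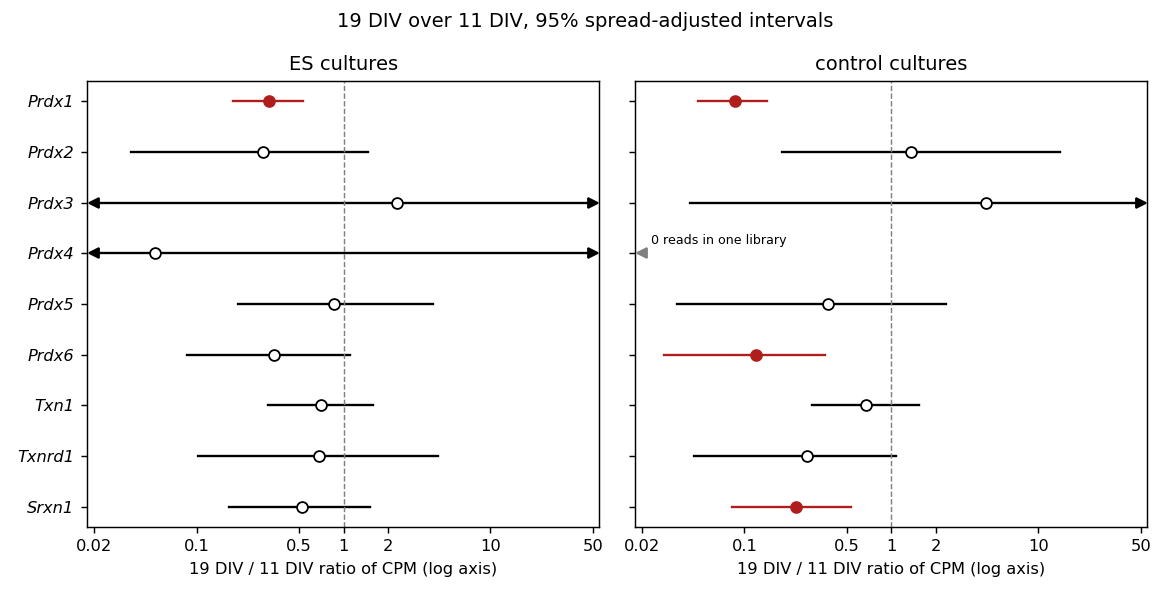
Ratio of 19 DIV to 11 DIV CPM for each gene (x axis, log scale) in ES cultures and in control cultures, with 95% spread-adjusted intervals. Filled red points passed the spread-adjusted rule, arrowheads mark intervals or values beyond the axis, and the grey arrowhead marks Prdx4, with 0 reads in the control library at 19 DIV. Prdx1 passes in both treatments (0.313 and 0.0861), Prdx6 and Srxn1 in control cultures.

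Across both treatments, 7 of the 9 genes were lower in both 19 DIV libraries than in both 11 DIV libraries (Prdx1, Prdx4, Prdx5, Prdx6, Txn1, Txnrd1 and Srxn1), where 17.8% of 9892 genes were. Only Prdx3 was higher in both, where 17.4% of genes were, and the Prdx2 values of the days overlapped. Between ES and control libraries the values overlapped for each of the 9 genes, where 15.1% of genes were higher and 15.9% lower without overlap. An additive model over the 4 libraries, with stimulation and day as factors and 1 residual degree of freedom, was fitted to 10034 genes with edgeR's quasi-likelihood test. It takes each effect as equal at both levels of the other factor, and uses ES and control libraries as replicates of a day. For Prdx1 the log2 day ratio was -3.54 in control and -1.68 in ES cultures, and the log2 ES ratio -1.59 at 11 DIV and 0.27 at 19 DIV, so its estimates average unlike values. The model gave Prdx1 a log2 day difference of -2.61 ± 0.62 (SE), Prdx6 one of -2.32 ± 0.53 and Srxn1 one of -1.55 ± 0.47. Their unadjusted p-values by this test were 0.00442, 0.00349 and 0.0146, and the Benjamini-Hochberg adjusted p of each was 1. For the day 0 genes of all 10034 passed an adjusted 0.05 in edgeR and in limma with voom (0%), while 204 had an unadjusted p under 0.05 in edgeR, which is 2.03%.

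DESeq2's Wald test on the same additive model called 4 of the 9 genes lower at 19 DIV, where it called 4.17% of genes lower and 4.12% higher. These were Prdx1, with an adjusted p of 2.82e-06, Prdx6, with 2.4e-05, Srxn1, with 0.00311, and Prdx4, with 0.00457. For stimulation the edgeR quasi-likelihood test gave Prdx1 a log2 difference of -0.66 ± 0.59 (adjusted p = 1). Over all genes 0 of 10034 passed for stimulation in edgeR and in limma with voom (0%), with 109 (1.09%) at an unadjusted p under 0.05 in edgeR. DESeq2 called 214 genes higher (2.22%) and 295 lower (3.06%) with stimulation, and 0 of the 9 were among them.

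When the 4 libraries were put in order, neighbours differed beyond their 95% spread-adjusted interval at few places. For Prdx1 the order ran from control at 11 DIV over ES at 11 DIV and ES at 19 DIV to control at 19 DIV, with steps of 3.01-fold, 3.19-fold and 1.21-fold, of which the first and second excluded equality. For Prdx6 and Srxn1 the first step alone did, 2.34-fold and 2.41-fold, each between control and ES at 11 DIV. No neighbouring pair of libraries differed in this sense for Prdx2, Prdx3, Prdx4, Prdx5, Txn1 or Txnrd1.

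Among 564 genes averaging 2000 reads or more, the patterns most like those of the 4 members with that many reads were ranked by the root mean square difference of log2 CPM, centred over the 4 libraries. Prdx1 was nearest to Prdx6 (0.19), Esd (0.21) and Hmga2 (0.52), and Prdx6 to Esd (0.12), Prdx1 (0.19) and Srxn1 (0.40). Srxn1 was nearest to Cdkn1a (0.21) and to the rows Gstp1 (0.25) and Gstp2 (0.27), near copies that may share reads. Txn1, by contrast, was nearest to Rpl14 (0.05), Cfl1 (0.05) and Rps24 (0.06), the first and last of which encode ribosomal proteins. These are descriptions over 4 libraries.

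Other genes of the pathway were read from lists drawn up by name. The 23 NRF2 pathway genes outside the 9, which hold NRF2 itself, its partners and its usual targets, had at 11 DIV a median log2 difference of -1.36 between ES and control, beside 0.00 over all genes. Of these 23 genes 4 were lower in the ES library by the spread-adjusted rule and 0 were higher, where 0.214% of all tested genes were lower and 0.102% higher. Hmox1, which breaks down heme, had 754 reads in the ES library against 4258 in the control library, or 0.173 times (0.0397 to 0.536). Fth1 and Ftl1, the ferritin subunits that store iron, stood at 0.480 (0.325 to 0.699) and 0.457 (0.291 to 0.703). Both had more reads than the genes the spread factor was fitted on. Gstp1, a glutathione transferase that reactivates Prdx6, stood at 0.390 (0.182 to 0.785). This list was chosen with the lower values of some of its genes already known, and it is no independent evidence of direction. At 19 DIV its median was 0.22 and 0 of 21 genes were called, where 0.13% of all tested genes were called higher and 0.13% lower.

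Over days the NRF2 pathway list had a median log2 difference of -0.04 in ES cultures, with 0 of 23 genes called, and of -1.65 in control cultures, with 5 lower (Hmox1, Fth1, Ftl1, Gstp1 and Gclm) and 0 higher. Of all tested genes 0.459% were called lower and 0.16% higher in control cultures, and 0.263% and 0.162% in ES cultures. Hmox1 in control cultures had 146 reads at 19 DIV and 4258 at 11 DIV. Gclm, a subunit of the enzyme that starts glutathione synthesis, had 4 reads at 19 DIV and 2031 at 11 DIV in control cultures, and 3 at 19 DIV and 670 at 11 DIV in ES cultures.

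Of the NADPH supply genes, whose products feed thioredoxin reductase, 1 of 14 was called at 11 DIV, where 0.214% of all tested genes were called lower. This was Pgd, an enzyme of the pentose phosphate pathway that makes NADPH, with 1530 reads in the ES library against 4720 in the control library, or 0.317 times (0.118 to 0.753). Taldo1, another enzyme of that pathway, stood at 0.435 (0.212 to 0.848) and was not called. In control cultures both were called lower at 19 DIV than at 11 DIV, Pgd at 0.302 times and Taldo1 at 0.370 times, where 0.459% of all tested genes were. The list's median at 11 DIV was -0.11 and at 19 DIV -0.32.

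The lists of related chemistry had genes on both sides of equality and no gene called by the spread-adjusted rule. By the counting rule each had genes called higher and genes called lower in ES at both days. At 11 DIV the spread-adjusted rule called 0.102% of all tested genes higher and 0.214% lower, so 0 calls in lists this small say little. There 0 of 21 other thioredoxin-fold genes were called and their median log2 difference between ES and control was 0.42. For the other peroxide and superoxide removal genes 0 of 16 were called and the median was 0.37. Sod1, which turns superoxide into peroxide, stood at 0.575 (0.295 to 1.09) and Gpx1, the glutathione-dependent peroxidase of the cytosol, at 1.22 (0.413 to 3.75). Among selenoproteins and their synthesis genes 0 of 10 were called (median 0.15), and among peroxide-producing enzymes 0 of 10 (median -0.32). At 19 DIV none of these 4 lists had a gene called by that rule, where 0.13% of all tested genes were called higher and 0.13% lower. Their medians were 0.11, 0.00, -0.44 and 2.97 in the same order. The last rests on 12 genes averaging 10 reads or more, 8 of them higher in the ES library, beside 5232 of 11665 such genes in all. By the counting rule 7 of 11 were higher and 3 lower, where 29.4% of tested genes were higher and 31.3% lower. Reads were clumped, so the median of so few genes can lie far from 0.

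**Figure D5:**
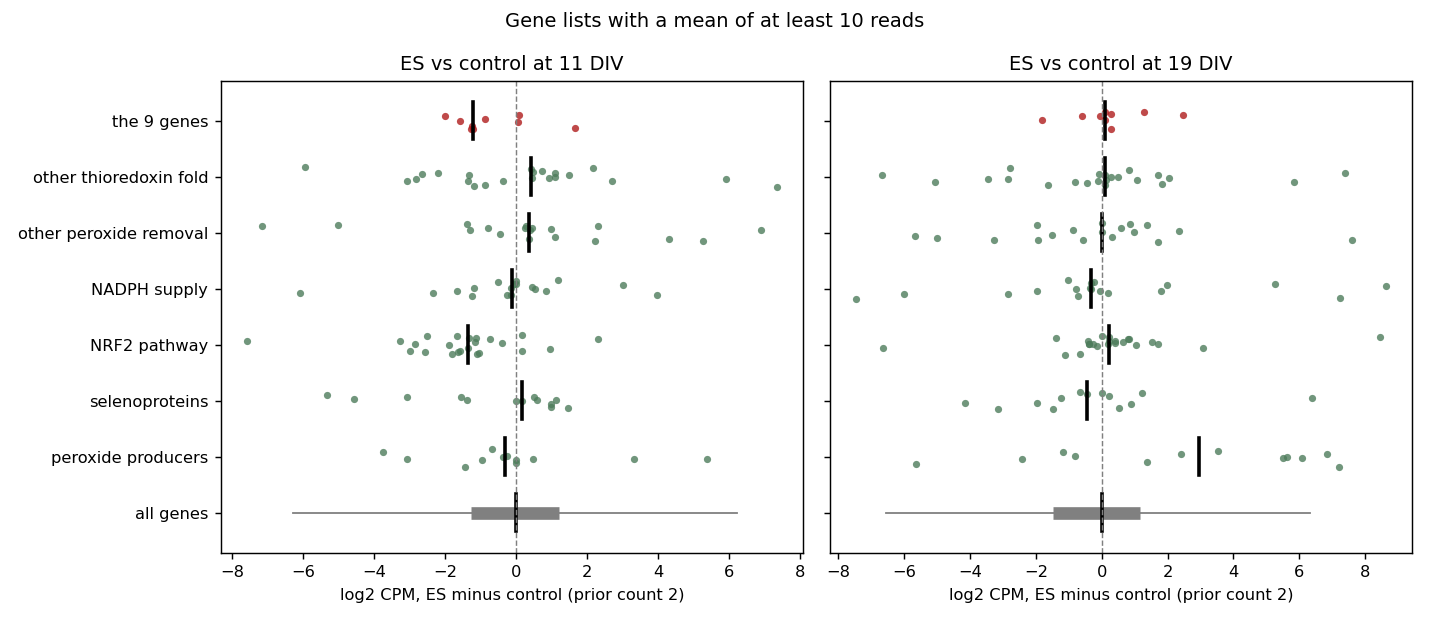
Log2 difference in CPM, ES minus control (x axis, prior count 2), for the 9 genes (red) and for 6 pathway lists (green) at 11 DIV and 19 DIV, with 1 point per gene of at least 10 mean reads and a black line at each median. The grey bar for all genes spans the middle 50% and its thin line the middle 90%. At 11 DIV the medians of the 9 genes (-1.22) and of the NRF2 pathway list (-1.36) lie below 0, and at 19 DIV they are 0.10 and 0.22.

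Markers of the cell types in the explants also differed in level between libraries. Summed CPM of 9 neuron markers was 4180 in ES and 3107 in control at 11 DIV, and 1592 in ES and 3925 in control at 19 DIV. That of 9 Schwann cell and satellite glia markers was 7180 in ES and 4115 in control at 11 DIV, and 9329 in ES and 11164 in control at 19 DIV. Fibroblast markers summed to 6712 in ES and 4946 in control at 11 DIV, and to 13027 in ES and 9347 in control at 19 DIV, all 7 of them with reads in every library. At 11 DIV these 3 sums were all higher in the ES library, while Prdx1 was lower there. Macrophage markers summed to 67.5 CPM in ES and 119 in control at 11 DIV, and to 143 in ES and 56.3 in control at 19 DIV, with Aif1 at 0 in all 4, and endothelial markers to at most 48.3, with Pecam1, Cldn5 and Tek at 0 in all. Smooth muscle markers summed to 227 in ES and 103 in control at 11 DIV and to 250.3 in ES and 91.1 in control at 19 DIV, with Des, Myh11 and Cnn1 at 0 in all. The part of cell makeup in the values of the 9 genes was not tested.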

How the data were processed

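The authors' deposited files, 1 per library, give whole-number counts of reads by gene symbol from 3' tag libraries (QuantSeq, 500 ng of total RNA, per the labels). Bowtie2, bedtools and mm10 are named per the submitters' processing notes; no source used here gives versions, duplicate handling or use of strand. All 4 tables were used, and 0 per-sample columns were left out. TMM scaling, edgeR 4.0.16, limma 3.58.1 and DESeq2 1.42.0 ran in R 4.3.3; ratios, exact intervals and spread factors in Python 3.11.15 with scipy 1.17.1, numpy 2.4.6 and pandas 2.3.3, with figures by matplotlib 3.10.9. Log2 differences used a prior count of 2. Scripts were tested on simulated data. Replicates were absent, so ratios carry no p-value, and intervals cover counting error, or the spread of the pair of libraries. Gene positions are from GENCODE M21 on GRCm38. Named genes were the 9, the 2 genes with most reads and up to 2 with the largest called difference per list and comparison, and 3 like patterns per member; Gstp1, Fth1, Ftl1 and Gclm came in through this rule. Members and lists were chosen with earlier results of these data known. Other scalings, count limits, fold limits, intervals and tools were tried.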

Additional observations from a re-analysis of the deposited data

Results flagged for a closer look

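The ES effect had opposite signs at 11 and 19 DIV for 4 of the 8 genes with reads in every library and at least 50 in a library of each day, where 50.9% of 6402 such genes in all had opposite signs, so the count is near the background. Prdx4, with 0 reads in the control library at 19 DIV, was not computed and had fewer reads in ES at 11 DIV (156 against 615) and more at 19 DIV (11 against 0). With 1 library per group the difference was not tested. On the log2 scale, the ES effect at 19 DIV minus that at 11 DIV was 1.86 for Prdx1. Its ES to control ratio was 0.333 at 11 DIV and 1.21 (0.611 to 2.45) at 19 DIV. The difference was 1.49 for Prdx6 and 1.35 for Txnrd1, with the same signs as Prdx1, and -2.25 for Prdx2, which was higher in ES at 11 DIV and lower at 19 DIV. At 19 DIV the interval of each of these 4 ratios included equality, so a reversal is not shown. The approximate interval lay clear of 0 for Prdx1 alone (0.85 to 2.87). For Txnrd1 it ran from -1.42 to 4.13, and for Prdx6 and Prdx2 it also crossed 0.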

How the results depend on the processing

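No paired analysis was possible because each group holds 1 library and the labels give no replicate numbers that pair libraries. Leaving out a library ends the comparison it belongs to, so no such value was computed. All 136 recomputed ratios of single genes kept their direction and stayed inside their interval under DESeq2 size factors, upper quartile scaling, total counts alone and thinning to the smallest total. A scaling shifts the log2 ratios of all genes of a comparison alike, and most intervals are wide beside these shifts. That outcome was therefore largely fixed in advance and is no sign of robustness. Total counts shifted every log2 ratio of ES to control at 11 DIV, and of 19 to 11 DIV in control cultures, by 0.13. Of the 24 recomputed differences of the ES effect between days, 1 took another sign, that of Txn1, which was 0.05 with TMM and -0.09 with total counts alone, well inside its interval. The number of the 9 genes called was the same under 46 of 52 alternatives. A 95% in place of a 99% interval called 3 genes at 11 DIV (Prdx1, Prdx6 and Srxn1, all lower), against 1, where 0.508% of all tested genes were lower. With a 95% interval on the reads as deposited, which changes both the level and the spread allowed for, the calls were 6 at 11 DIV, 2 at 19 DIV, 5 between days in ES cultures and 7 between days in control cultures. Of all tested genes this rule called 28.9% higher and 29.6% lower at 11 DIV, and 29.4% and 31.3% at 19 DIV. Between days it called 30.9% higher and 30.5% lower in ES cultures, and 30.9% and 29.8% in control cultures. DESeq2 called 4 of the 9 for the day (831 genes in all), against 0 in edgeR, and the cause was not tested.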
